A study of Mus musculus with 2 samples.

Results

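Described here are 8 mouse genes of sterol and fatty acid metabolism, Hmgcs1, Sqle, Idi1, Insig1, Scd1, Scd2, Soat1 and Soat2, out of 25943 genes measured in single bone marrow cells. They were taken as the rows of the expression table with these names. They were selected on class levels and MCAO-to-control ratios already seen in these same libraries, so both are given as a description with no test. The working name of the set mentions cholesterol uptake, but none of the 8 genes encodes an uptake receptor. 3 act in cholesterol synthesis, 1 in sterol sensing, 2 in fatty acid desaturation and 2 in cholesterol esterification.

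Whole marrow came from wild-type (WT) males of 8 to 10 weeks. 1 library was labelled control, and 1 was made from mice with a stroke caused by blocking a brain artery (MCAO, for middle cerebral artery occlusion). Both groups share sex, age and genotype, and differ in the label control or MCAO. How many animals went into each library, how long after the stroke marrow was collected and whether controls had sham surgery are not given in the sources used here. Transcripts were counted by unique molecular identifiers (UMIs) on the BD Rhapsody microwell system.

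Cells make cholesterol from acetyl groups by way of mevalonate, squalene and lanosterol. When membrane sterol is low, the carrier protein SCAP escorts SREBP transcription factors out of the endoplasmic reticulum, and these switch on genes for synthesis, uptake and desaturation, while INSIG proteins hold SCAP back when sterol is plentiful. Stearoyl-CoA desaturases place a double bond in saturated fatty acids, and sterol O-acyltransferases join cholesterol to such fatty acids for storage in lipid droplets. Neutrophils mature in the marrow from promyelocytes through pre-neutrophils and immature neutrophils, and stop dividing on the way.

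Median depth was 3344 UMIs over the 5212 control cells and 4952 over the 5398 MCAO cells. Cells were grouped into 25 clusters and named from marker genes, with the suffix -like. 14 classes had at least 20 cells in each library, of which 1, cluster 15 (led by Car1, Tfr2 and Sphk1), stayed unnamed. When clustered at a finer resolution of 2, a group of 52 control and 67 MCAO cells led by Car1 and Sphk1 was named erythroid-like. That name rested on 1 erythroid marker among its leading genes. Cluster 15 may thus not be separate from the erythroid line. Defining markers led the classes that matter most here, such as Siglech and Ccr9 in plasmacytoid dendritic-like cells and Mpo and Elane in promyelocyte-like cells. Cd209a, a conventional dendritic marker, was also among the leading genes of the plasmacytoid dendritic-like class (146 control and 168 MCAO cells). At the finer resolution 2, that name went to 116 and 117 cells, and 40 and 61 cells formed a conventional dendritic-like cluster. The plasmacytoid dendritic-like class may thus hold both types. Among the mature neutrophil-like clusters, 87.5% of cluster 7 and 89.0% of cluster 12 came from the MCAO library, so for these 2 clusters library and cluster are hard to separate. Genes typical of other cell types, used as a check of RNA released from lysed cells (free RNA), also differed between the libraries. Free RNA itself was not measured. In mature neutrophil-like cells the summed level of 4 haemoglobin genes, which define red cells, was 9.29 per 10000 UMIs in control marrow and 16.7 in the MCAO library, and that of 9 B-cell development genes was 1.62 and 0.693. With 1 library per group there is no replicate check, and bracketed values are 95% intervals for counting error alone. A level is the summed UMIs of a gene per 10000 UMIs of the class, and levels are compared between classes and libraries for 1 gene at a time.

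The 8 genes had quite different homes in the marrow. Here and below, classes are ranked among the 14 with at least 20 cells in each library. That leaves out plasma cell-like cells, 10 in control marrow and 6 in the MCAO library. In these, Sqle stood at 0.588 and 0.290 from 9 and 3 UMIs, and Soat2 at 0 and 0.290 from 0 and 3 UMIs. The control level of Sqle and the MCAO level of Soat2 there were above those of every ranked class. Hmgcs1, Sqle and Insig1 were highest in plasmacytoid dendritic-like cells, Scd1 in B cell-like cells, Scd2 in promyelocyte-like cells and Soat1 in monocyte-like cells, in both libraries. Soat2 had its highest level in basophil or mast-like cells, on 14 UMIs over both libraries. Next came erythroid-like cells in control marrow and mature neutrophil-like cells in the MCAO library. Idi1 had 34 UMIs among all 10610 cells.

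**Figure D1:**
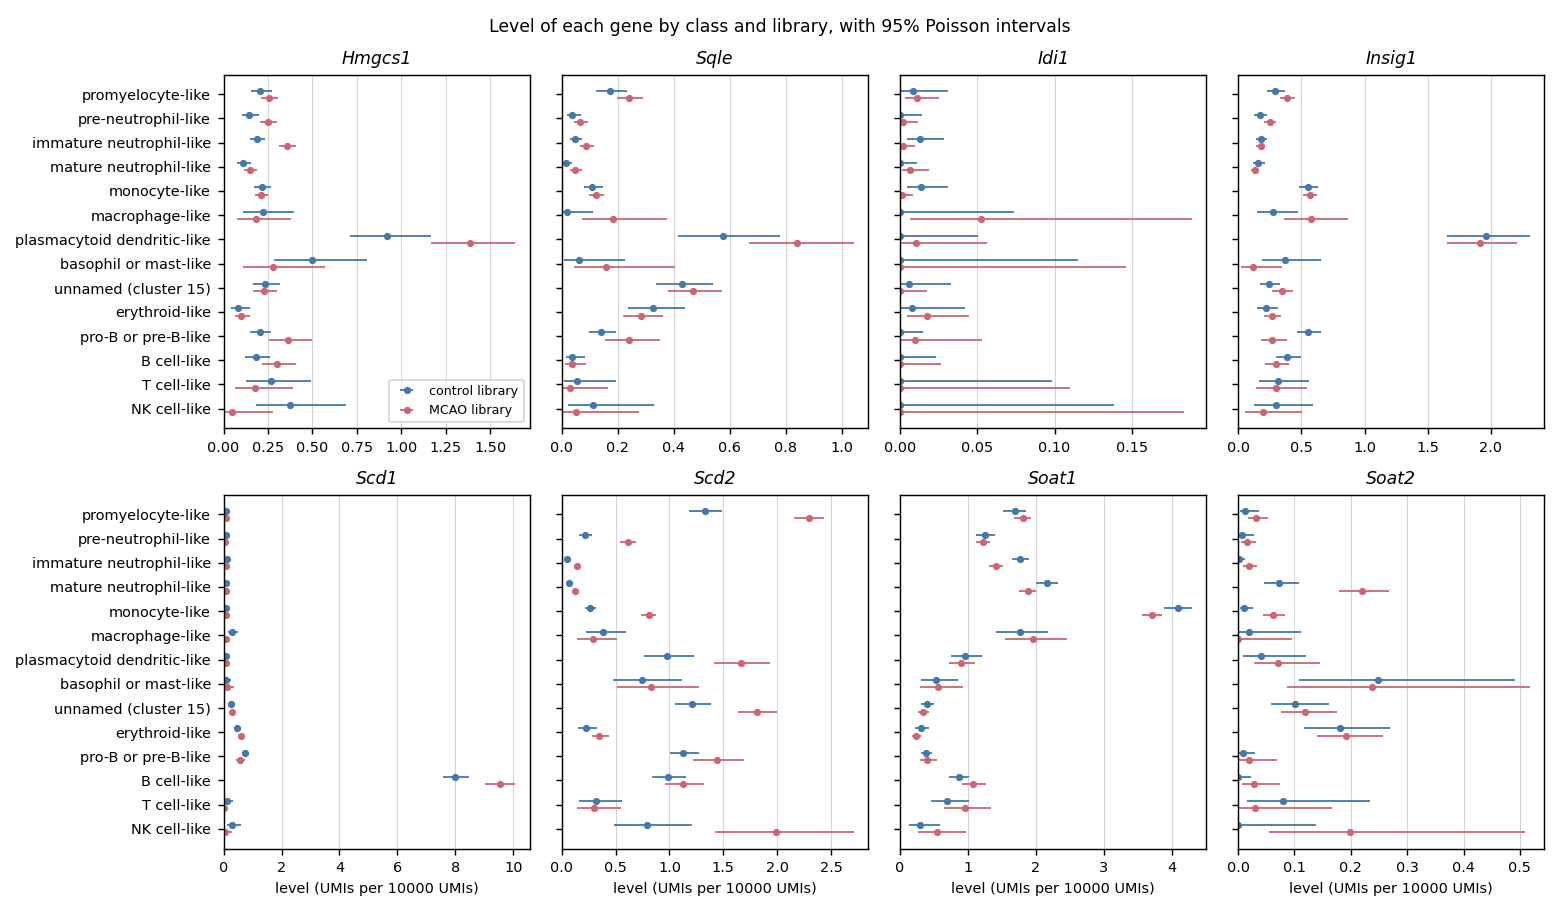
Level of each of the 8 genes (x axis, UMIs per 10000 UMIs, a separate scale per gene) in the 14 classes (y axis), with the control library in blue, the MCAO library in red and bars for 95% Poisson intervals. Scd1 stands at 8.00 and 9.54 in B cell-like cells and under 1 in the 13 other classes, while Soat1 stands at 4.09 and 3.71 in monocyte-like cells.

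Hmgcs1 encodes the cytosolic HMG-CoA synthase, which condenses acetyl groups early in the mevalonate pathway. It lies on chromosome 13 at 119690379 to 119708260 of GRCm38, on the plus strand, and overlaps the antisense gene model Gm48342. Plasmacytoid dendritic cells are the interferon-producing cells of the dendritic lineage. In the class named after them, which may also hold conventional dendritic cells, the Hmgcs1 level was 0.918 [0.712 to 1.17] in control marrow and 1.39 [1.17 to 1.64] in the MCAO library. The ratio was 1.51-fold [1.12 to 2.06]. Of these cells, 24.0% and 37.5% held at least 1 Hmgcs1 UMI, and 10.1% and 14.5% once every cell was thinned to 1000 UMIs. Thinned shares of mature neutrophil-like cells were 0.646% and 0.959%, at median depths of 2330.5 and 3149 UMIs against 4804.5 and 5115 in the plasmacytoid dendritic-like cells. In the MCAO library the plasmacytoid dendritic-like interval stood apart from that of the next class, whereas in the control library it overlapped with basophil or mast-like cells, which had 16 UMIs.

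Along the neutrophil line Hmgcs1 was past 1.5-fold higher in the MCAO library at the pre-neutrophil and immature stages. Promyelocyte-like cells had 0.207 and 0.257 per 10000, pre-neutrophil-like cells 0.145 and 0.248, immature neutrophil-like cells 0.187 and 0.358, and mature neutrophil-like cells 0.110 and 0.149. The difference was largest at the immature stage, at 85 and 207 UMIs and a ratio of 1.91-fold [1.48 to 2.49], and both clusters of that stage showed it, cluster 0 at 1.71-fold [1.27 to 2.33] and cluster 8 at 2.04-fold [1.13 to 3.67]. At the mature stage the ratio of 1.36-fold [0.895 to 2.09] had an interval that included no difference. There 51 of the 69 MCAO UMIs lay in cluster 7, which is led by stefin A genes. That cluster had 1 immature beside 1 mature marker among its leading genes, so its stage is less firm. Without the clusters held mostly by the MCAO library the log2 ratio turned from 0.38 to -0.63. In monocyte-like cells both levels were alike, at 0.214 and 0.211, a ratio of 0.987-fold [0.745 to 1.32].

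Sqle encodes squalene epoxidase, an oxygen-dependent and rate-limiting step after squalene (chromosome 15, 59315077 to 59331192, plus strand). Its order of classes was plasmacytoid dendritic-like cells at 0.576 and 0.841 per 10000, cluster 15 at 0.428 and 0.469, and erythroid-like cells at 0.326 and 0.284. In the MCAO library the plasmacytoid dendritic-like interval of 0.670 to 1.04 stood apart from that of cluster 15, while in the control library these neighbours overlapped. Mature neutrophil-like cells held 5 UMIs in control marrow and 22 in the MCAO library, too few for a ratio under the minimum of 50 UMIs. Over all neutrophil-like cells (pre-neutrophil, immature and mature stages together) Sqle stood at 0.0345 and 0.0684, a ratio of 1.98-fold [1.35 to 2.99]. In immature neutrophil-like cells alone it was 1.87-fold [1.10 to 3.27] higher in the MCAO library.

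Idi1 encodes isopentenyl diphosphate isomerase, which interconverts the building blocks of isoprenoids (chromosome 13, 8885501 to 8892451, plus strand). Its 34 UMIs, 15 in control marrow and 19 in the MCAO library, were spread over the classes with at most 7 in any class, so no ratio by class was possible. Idi1 overlaps the gene model Gm48574 on the opposite strand, and no source used here says whether the counting used strand.

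Insig1 encodes an endoplasmic reticulum protein that retains SCAP and is itself a target of SREBP (chromosome 5, 28071363 to 28078662, plus strand). In the small plasma cell-like class, which was not ranked, its level was 1.31 and 0.483, from 20 and 5 UMIs. Its level in plasmacytoid dendritic-like cells was 1.96 [1.65 to 2.31] in control marrow and 1.92 [1.65 to 2.21] in the MCAO library, apart from every other ranked class in both. 46.6% and 54.8% of these cells held an Insig1 UMI, 20.3% and 17.5% after thinning. The ratio between the libraries there was 0.977-fold [0.782 to 1.22]. Monocyte-like cells held the third place in both libraries, at 0.553 and 0.566 per 10000. Their interval overlapped that of the class just above, which was the pro-B or pre-B-like one (0.555) in control marrow and the macrophage-like one (0.574, from 22 UMIs) after MCAO. Mature neutrophil-like cells were at 0.161 and 0.132. Among precursors of B cells (the pro-B or pre-B-like class) the difference was the largest of any class with at least 50 UMIs, with 136 UMIs in 703 control cells and 28 UMIs in 203 MCAO cells, or 0.555 and 0.268 per 10000. Insig1 was thus 2.07-fold [1.37 to 3.24] lower in the MCAO library there. All 3 clusters of that class were lower, with 0.663 and 0.295 in cluster 6, 0.523 and 0.274 in cluster 16, and 0.333 and 0.222 in cluster 21, where the last had 15 UMIs in all. The summed level of B-cell development genes also differed between the libraries in other classes, and its part in the Insig1 difference was not tested.

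The promoters of Hmgcs1 and Insig1, which shared the plasmacytoid dendritic-like peak, are shown beside that of Soat1, which did not. Each runs from 250 bases before to 50 bases after the RefSeq start (build GRCm38.p6), 5′ to 3′ on the gene's strand. Capitals mark CACNCCAC, letters found in sterol response elements, and CCAAT, the box bound by NF-Y, a partner of SREBP, on either strand. The windows are chr13:119690101-119690400 (plus), chr5:28071162-28071461 (plus) and chr1:156474279-156474578 (minus).
Hmgcs1: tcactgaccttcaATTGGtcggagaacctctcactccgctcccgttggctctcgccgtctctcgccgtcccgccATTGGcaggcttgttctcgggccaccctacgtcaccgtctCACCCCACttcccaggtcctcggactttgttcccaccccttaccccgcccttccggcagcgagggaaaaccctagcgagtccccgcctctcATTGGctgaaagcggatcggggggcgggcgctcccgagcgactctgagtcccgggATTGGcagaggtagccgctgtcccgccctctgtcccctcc
Insig1: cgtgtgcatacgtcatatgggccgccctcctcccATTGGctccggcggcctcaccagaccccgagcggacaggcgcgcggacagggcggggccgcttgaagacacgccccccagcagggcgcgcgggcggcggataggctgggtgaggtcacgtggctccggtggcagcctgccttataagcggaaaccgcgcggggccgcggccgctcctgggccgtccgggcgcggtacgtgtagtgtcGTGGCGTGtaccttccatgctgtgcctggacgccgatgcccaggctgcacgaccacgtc
Soat1: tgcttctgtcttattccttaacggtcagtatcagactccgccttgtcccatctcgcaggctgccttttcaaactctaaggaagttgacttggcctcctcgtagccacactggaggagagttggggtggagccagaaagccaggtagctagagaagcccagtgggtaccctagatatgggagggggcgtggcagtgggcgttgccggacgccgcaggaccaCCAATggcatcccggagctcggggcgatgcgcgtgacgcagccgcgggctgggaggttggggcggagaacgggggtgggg
The Hmgcs1 window held CACCCCAC at -136 to -129 and 4 CCAAT matches, all read on the other strand as ATTGG. In the Insig1 window CACNCCAC was read on the other strand, as GTGGCGTG at -9 to -2, with 1 CCAAT match. The Soat1 window held no CACNCCAC match and 1 CCAAT match at -30 to -26. The motifs do not overlap each other here. Among 32851 promoters of the same length, 6.24% held CACNCCAC, 37.4% held CCAAT and 2.09% held both. A match describes letters in this window only. Of the 8 genes, 4 had a promoter in the RefSeq table, among them Idi1, which held CCAAT 2 times and CACNCCAC 0 times. Sqle, Scd1, Scd2 and Soat2 had none.

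Other synthesis genes shared the home of Hmgcs1, Sqle and Insig1. Of 17 cholesterol synthesis genes outside the 8, 15 had at least 200 UMIs, and 8 of these, among them Mvk, Mvd, Cyp51, Msmo1, Sc5d and Dhcr7, had their highest class level in plasmacytoid dendritic-like cells in both libraries. Among all 11110 genes with at least 200 UMIs the share was 3.86%. Cyp51, lanosterol demethylase, stood at 0.767 and 0.851 there and at 0.142 and 0.187 in monocyte-like cells, the next of 6 classes plotted. Of 10 uptake genes with at least 200 UMIs, 3, among them Lrp8 and Npc1, were also highest in this class in both libraries. Another 2 were highest in macrophage-like cells, 2 in monocyte-like cells (Scarb1 and Npc2) and 1 in erythroid-like cells (Cd36). Of 6 sensing genes, 2 (Srebf2 and Scap) were highest in plasmacytoid dendritic-like cells in both libraries. Nceh1, a cholesteryl ester hydrolase, was the only gene of the efflux list to be so, while Abca1, Abcg1 and Apoe were highest in macrophage-like cells.

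**Figure D2:**
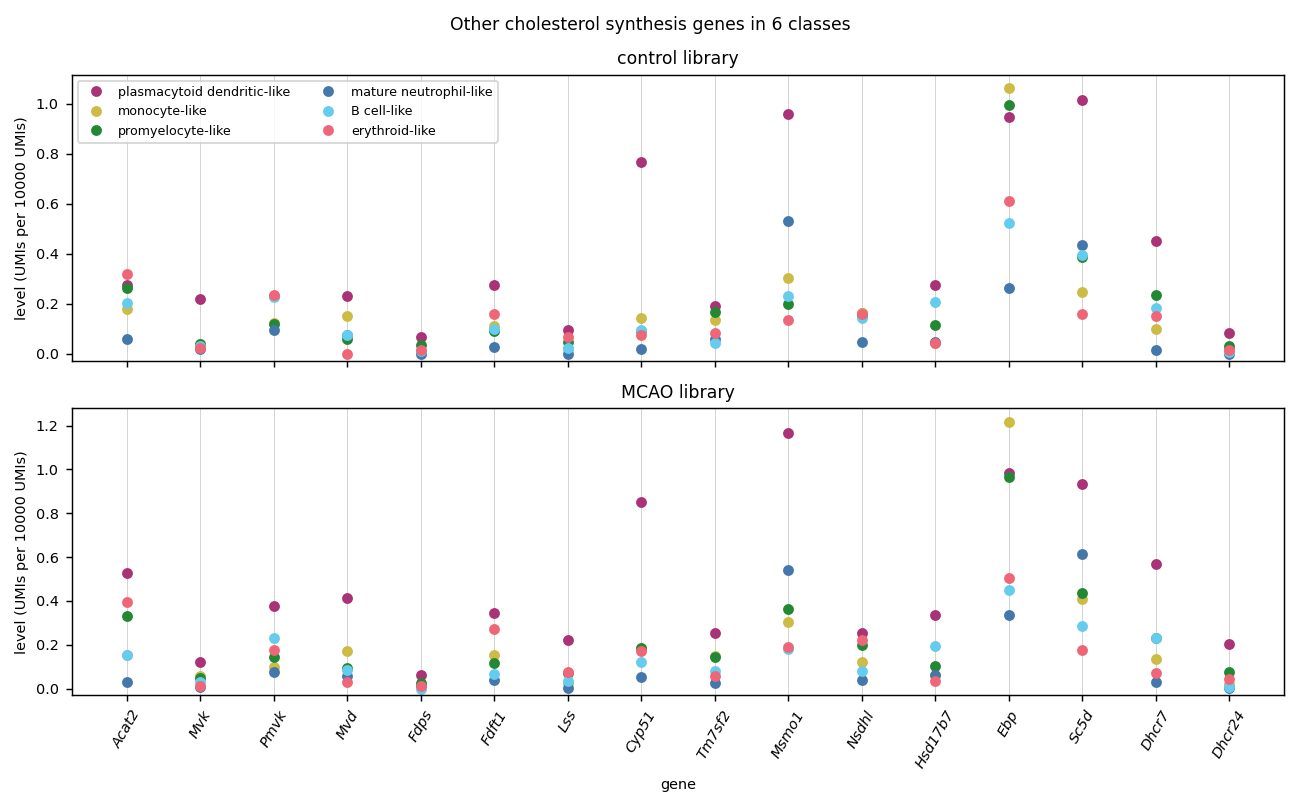
Level (y axis, UMIs per 10000 UMIs) of 16 cholesterol synthesis genes (x axis) in 6 classes, the control library above and the MCAO library below. Plasmacytoid dendritic-like cells give the highest point for Cyp51, Msmo1, Sc5d and Dhcr7 in both panels, with Cyp51 at 0.767 and 0.851.

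Scd1 and Scd2 encode stearoyl-CoA desaturases and are neighbours on chromosome 19 (Scd1 at 44394455 to 44407879 on the minus strand, Scd2 at 44293674 to 44306864 on the plus strand). Their transcripts share 145 words of 50 bases, of 4841 in Scd1 and 5406 in Scd2, so some reads could fit both, and no source used here says how such reads were counted. The levels of these neighbours nevertheless followed separate classes, with a Pearson correlation of 0.24 over the 28 class and library pairs, which share libraries and depth.

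Scd1 was found mainly in the B lineage. B cell-like cells held 1269 UMIs in control marrow and 1310 in the MCAO library, or 8.00 [7.57 to 8.46] and 9.54 [9.03 to 10.1] per 10000, a ratio of 1.19-fold [1.10 to 1.29]. 490 of 689 control cells (71.1% [67.6 to 74.5]) and 445 of 555 MCAO cells (80.2% [76.6 to 83.4]) held an Scd1 UMI, with up to 11 and 16 in a cell, and after thinning 49.4% and 56.4%. In mature neutrophil-like cells the shares were 2.50% and 2.36%, and after thinning 1.29% and 0.664%. The median depth of B cell-like cells was 1991 and 2156 UMIs, below that of the mature neutrophil-like cells. Scd1 was itself 1 of the 10 leading genes of B cell-like cluster 9 and 1 of the variable genes used for clustering, so its level there is a description of the cluster.

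Within the B lineage Scd1 was higher in clusters led by genes of later stages. Cluster 21, led by the surrogate light chain gene Vpreb1 and by Dntt, had 0.166 and 0.310 per 10000, on 12 UMIs in all. Cluster 16, with Il7r and Vpreb3 among its leading genes, had 0.321 and 0.548. Cluster 6, led by the recombinase gene Rag1 and by Il2ra, had 1.40 and 0.927. Cluster 9, led by Ms4a1 (CD20) and light chain genes, had 7.86 and 9.90, and cluster 3, led by Ighd and Fcer2a, which mark mature B cells, had 8.16 and 9.31. Clusters 9 and 3 overlapped in both libraries. Scd2 ran differently over the same clusters, with 0.699 and 1.29 in cluster 21, 0.878 and 1.30 in cluster 16, 1.58 and 1.94 in cluster 6, 1.45 and 1.44 in cluster 9 and 0.494 and 0.935 in cluster 3. It was thus lower in the Ighd-led cluster than in cluster 6 in both libraries, at the point where Scd1 was near its highest.

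The genes whose levels were most like those of Scd1 over the 28 class and library pairs included Ms4a1 (Pearson r = 0.89) and H2-Ob (0.84), both typical of B cells. Scd1 UMIs in other cells were few. In mature neutrophil-like cells Scd1 stood at 0.101 and 0.0691 per 10000, which is 1.26% and 0.724% of the B cell-like level. Cd79a, a B-cell gene that neutrophils should lack, stood at a similar fraction there, 1.34% and 0.964%. The Scd1 fraction was thus no larger than that of Cd79a, and Scd1 in neutrophil-like cells is not read as expression. Over all neutrophil-like cells Scd1 was 1.48-fold [1.13 to 1.95] lower in the MCAO library. That library also held fewer B-lineage cells, 555 B cell-like and 203 pro-B or pre-B-like against 689 and 703, whose part in this was not tested. Erythroid-like cells, at 0.454 and 0.602, and cluster 15, at 0.244 and 0.284, were above the neutrophil-like stages, while Cd79a in MCAO erythroid-like cells stood at 1.08% of its B cell-like level, or 0.0916 per 10000.

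**Figure D3:**
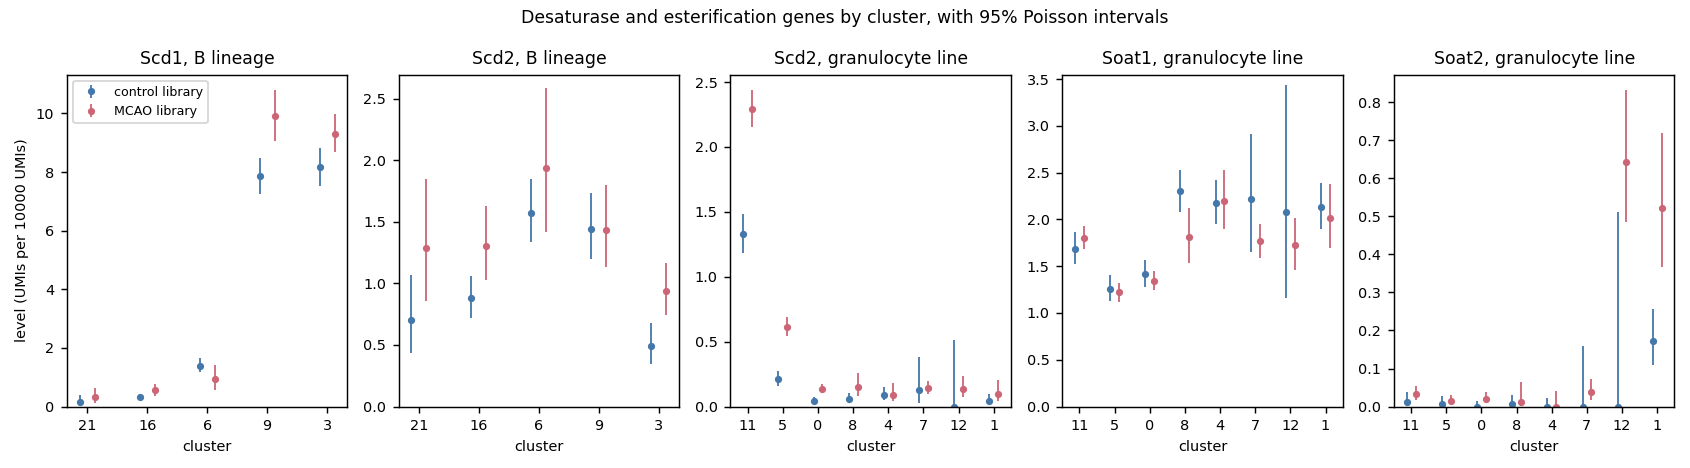
Levels (y axis, UMIs per 10000 UMIs, with 95% Poisson intervals) of Scd1 and Scd2 in 5 B-lineage clusters and of Scd2, Soat1 and Soat2 in 8 clusters of the granulocyte line (x axis, cluster numbers; 11 is promyelocyte-like, 5 pre-neutrophil-like, 0 and 8 immature, and 4, 7, 12 and 1 mature neutrophil-like), blue for control and red for MCAO. Scd1 goes from under 1.5 in clusters 21, 16 and 6 to between 7.86 and 9.90 in clusters 9 and 3, and Soat2 reaches 0.642 and 0.522 in the MCAO points of clusters 12 and 1.

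Scd2 was highest in promyelocyte-like cells. Promyelocytes make the primary granule proteins. The class named after them had 1.33 [1.18 to 1.48] per 10000 in control marrow and 2.29 [2.16 to 2.44] in the MCAO library, from 308 and 1051 UMIs. At resolution 2 that name went to 98 control and 210 MCAO cells. There 131 and 172 cells formed a haematopoietic progenitor-like cluster led by Cd34, so the promyelocyte-like class may also hold earlier progenitors. The share of these cells with an Scd2 UMI was 60.2% and 79.2%, or 10.8% and 20.8% after thinning. Levels were lower at each of the next 2 stages, with 0.213 and 0.615 in pre-neutrophil-like cells and 0.0463 and 0.138 in immature neutrophil-like cells. Mature neutrophil-like cells were at 0.0701 and 0.123, which overlapped the immature stage in both libraries. In the MCAO library NK cell-like cells (1.99, from 40 UMIs) and cluster 15 (1.81) came next after promyelocyte-like cells, and in the control library cluster 15 (1.21) and pro-B or pre-B-like cells (1.13), with overlapping intervals between neighbours.

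The MCAO library had more Scd2 than the control library in all 10 classes with at least 100 cells in each. Monocyte-like cells had 98 UMIs in 523 control cells and 539 UMIs in 785 MCAO cells, a level of 0.262 [0.213 to 0.319] and 0.807 [0.740 to 0.878] and a ratio of 3.08-fold [2.48 to 3.86]. 11.5% of control and 31.7% of MCAO monocyte-like cells held an Scd2 UMI, and 2.33% [1.21 to 4.04] and 5.87% [4.33 to 7.76] after thinning. Both main monocyte-like clusters showed it, cluster 2 at 2.82-fold [2.01 to 4.05] and cluster 10 at 3.44-fold [2.56 to 4.71]. Pre-neutrophil-like cells were at 2.88-fold [2.16 to 3.91], immature neutrophil-like cells at 2.99-fold [1.83 to 5.09], mature neutrophil-like cells at 1.75-fold [1.06 to 2.99], promyelocyte-like cells at 1.73-fold [1.52 to 1.97] and plasmacytoid dendritic-like cells at 1.71-fold [1.29 to 2.29]. B cell-like cells differed least as a class, at 1.15-fold [0.912 to 1.44], while their clusters differed, with cluster 3 at 1.89-fold [1.27 to 2.87] and cluster 9 at 0.993-fold [0.734 to 1.34]. Cluster 3 made up 362 of 689 control and 365 of 555 MCAO cells of the class. T cell-like and macrophage-like cells, with fewer cells, had slightly lower MCAO levels, at 0.319 and 0.298 and at 0.381 and 0.287, with intervals that overlapped.

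The mature neutrophil-like value rests on 23 and 57 UMIs. After thinning to 1000 UMIs its log2 ratio was 0.20 in place of 0.67, so it is the least firm of the neutrophil stages, and the immature stage moved from 1.26 to 0.77. In monocyte-like cells the thinned log2 ratio was 1.29 in place of 1.55. Haemoglobin genes were 1.67 to 1.79-fold higher in monocyte-like cells of the MCAO library, and the part of free RNA in the Scd2 difference was not tested. The genes most like Scd2 over the 28 pairs were Exosc5 (r = 0.88), Bfar (0.88) and Blmh (0.87).

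**Figure D4:**
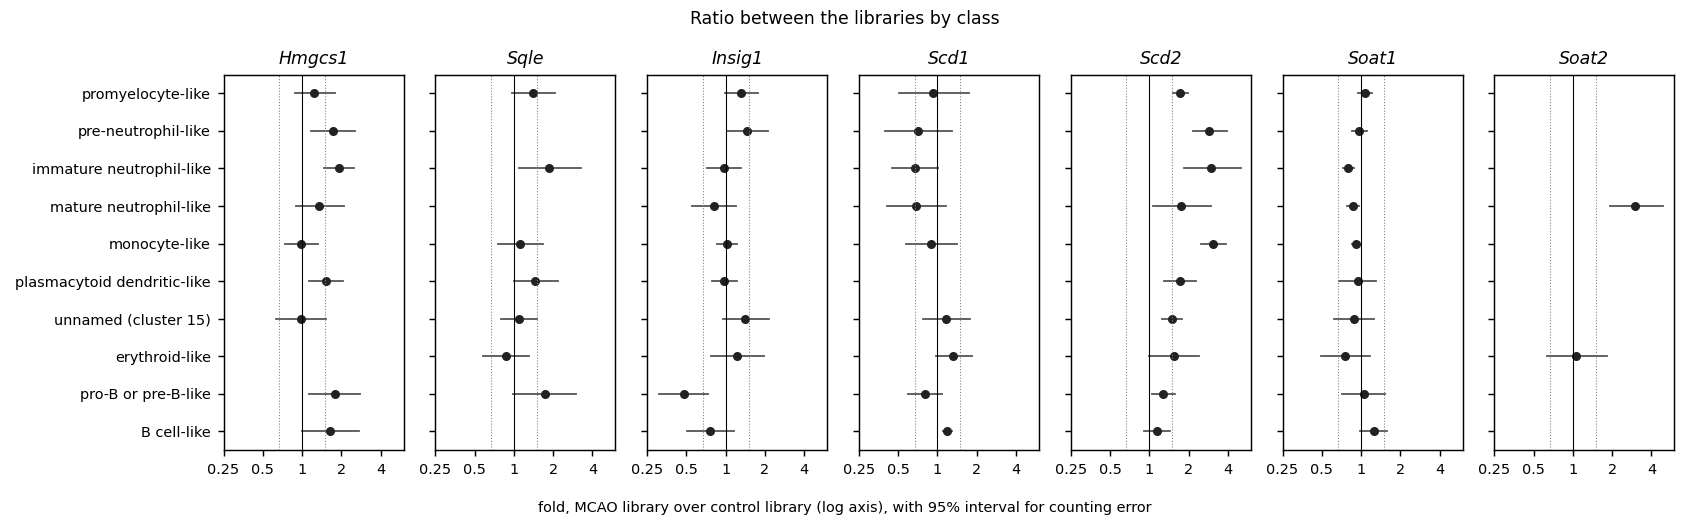
Ratio of the MCAO to the control library (x axis, log scale, points with 95% intervals) for 7 genes in 10 classes (y axis), with dotted lines at 1.5-fold either way; a missing point means fewer than 50 UMIs or too few cells with a UMI. Scd2 lies to the right of 1 in all 10 classes, up to 3.08-fold in monocyte-like cells, while Soat1 lies between 0.759-fold and 1.25-fold.

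Soat1 and Soat2 encode the sterol O-acyltransferases, of which Soat1 is the form found in most tissues and Soat2 is known mainly from liver and intestine. Soat1 lies on chromosome 1 at 156424525 to 156474331 (minus strand, with the gene model Gm37648 on the opposite strand) and Soat2 on chromosome 15 at 102150526 to 102163469 (plus strand). They share 0 words of 50 bases.

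Soat1 was mainly a myeloid transcript and differed little between the libraries. Monocyte-like cells had 4.09 [3.88 to 4.30] per 10000 in control marrow and 3.71 [3.56 to 3.86] in the MCAO library, and 81.3% and 82.6% of these cells held a Soat1 UMI (31.3% and 29.9% after thinning). The ratio was 0.907-fold [0.851 to 0.968]. Mature neutrophil-like cells, at 2.16 and 1.88, came next in control marrow. In the MCAO library macrophage-like cells, at 1.76 and 1.96, came next, with an interval that overlapped the mature neutrophil-like one. Promyelocyte-like cells were at 1.69 and 1.80, immature neutrophil-like cells at 1.77 and 1.41 and pre-neutrophil-like cells at 1.26 and 1.22. Among the granulocyte stages Soat1 was thus lowest in pre-neutrophil-like cells in both libraries, and the pre-neutrophil-like interval of the control library, 1.12 to 1.40, stood apart from those of both the promyelocyte-like and the mature stage. Within the immature stage cluster 8, led by Thbs1, Mmp8 and Mmp9, was at 2.30 and 1.81, and cluster 0, led by Ltf, at 1.42 and 1.34. Outside the myeloid line the level was lower, at 0.864 and 1.08 in B cell-like cells and 0.311 and 0.236 in erythroid-like cells. No class with at least 50 Soat1 UMIs passed 1.5-fold in either direction. The furthest below 1 among the neutrophil stages was the immature one, at 0.797-fold [0.722 to 0.880]. That stage joins cluster 0, with 522 control and 846 MCAO cells and a ratio of 0.945-fold [0.832 to 1.07], and cluster 8, with 385 and 159 cells and 0.787-fold [0.650 to 0.949]. With cluster 8 in the mature class, a setting chosen after seeing the data, the immature log2 ratio of Soat1 went from -0.32 to -0.08. The genes most like Soat1 were Gpr141 (r = 0.91), Ralb (0.90) and Wdfy2 (0.90).

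Soat2 was rare. Over both libraries mature neutrophil-like cells, the largest class, held more of its UMIs than any other class. In control marrow they held 24 UMIs, as did erythroid-like cells. By level they ranked 5 in control marrow and 2 in the MCAO library. Of the mature neutrophil-like cells, 13 of 1280 in control marrow and 66 of 1357 in the MCAO library held a Soat2 UMI. The shares were 1.02% [0.542 to 1.73] and 4.86% [3.78 to 6.15], and 0.808% and 2.80% after thinning. The level was 0.0732 [0.0469 to 0.109] and 0.220 [0.180 to 0.267], a ratio of 3.01-fold [1.92 to 4.91]. Immature neutrophil-like cells held 1 UMI in 907 control cells and 11 UMIs in 1005 MCAO cells, too few for a ratio under the minimum. Within the mature class Soat2 was found in 2 clusters. Cluster 1, led by Il1b, Ifit3 and Hcar2, had 24 and 37 UMIs and 0.172 and 0.522 per 10000, a ratio of 3.02-fold [1.76 to 5.28]. Cluster 12, led by Stfa2l1 and Ifitm1, had 0 UMIs in its 41 control cells, with an interval of 0 to 0.512, and 57 UMIs in its 333 MCAO cells, a level of 0.642 [0.486 to 0.831]. Cluster 4 had 0 UMIs in either library, and cluster 7 had 0 and 8. Without clusters 7 and 12 the log2 ratio was 1.32, against 1.37 with them, and when clustering was done without the lipid genes it was 1.45. Soat2 was 1 of the variable genes used for clustering, so its split between clusters 1 and 4 is a description.

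In the other classes with most Soat2 the levels of the libraries were closer. Erythroid-like cells had 0.182 and 0.192 per 10000, a ratio of 1.06-fold [0.628 to 1.82], basophil or mast-like cells 0.249 and 0.238, and cluster 15 0.101 and 0.118. Monocyte-like cells had 4 and 41 UMIs, too few for the minimum, with a ratio of 5.74 and a wide interval of 2.08 to 22.1. The genes most like Soat2 over the 28 pairs were Il1rl1 (r = 0.73), Fbxo9 (0.71) and Eid1 (0.69), over 364 Soat2 UMIs.

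A gene was counted as past the threshold in a class when its ratio was at least 1.5-fold, with at least 50 UMIs over both libraries and a UMI in at least 2% of the cells in 1 library. In mature neutrophil-like cells 2 of the 6 genes with enough UMIs were higher (Scd2 and Soat2) and 0 lower, beside 5.84% higher and 7.72% lower among all 6838 genes. Over all neutrophil-like cells 4 of 7 were higher (Hmgcs1, Sqle, Scd2 and Soat2) and 0 lower, beside 2.51% and 3.55%. In immature neutrophil-like cells 3 were higher (Hmgcs1, Sqle and Scd2), beside 3.86% higher and 4.55% lower. Pre-neutrophil-like cells had 2 higher (Hmgcs1 and Scd2), beside 4.34% and 3.62%, and promyelocyte-like cells 1 (Scd2), beside 4.27% and 4.09%. In monocyte-like cells 1 was higher (Scd2), beside 4.46% and 5.00%, and in plasmacytoid dendritic-like cells 2 (Hmgcs1 and Scd2), beside 6.71% and 6.99%. B cell-like cells had 1 higher (Hmgcs1, with an interval of 0.990 to 2.72), beside 4.40% and 6.59%. Pro-B or pre-B-like cells had 2 higher (Hmgcs1 and Sqle) and 1 lower (Insig1), beside 6.48% and 9.50%. Erythroid-like cells had 1 higher (Scd2, with an interval of 0.998 to 2.42), beside 3.28% and 8.58%, and cluster 15 had 0 in either direction, beside 4.10% and 5.72%, where Scd2 fell just short of the threshold. The 8 genes were proposed with these ratios known, so nothing is read from these counts.

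Lists of related genes were compared in the same way in mature neutrophil-like cells, where the median log2 ratio of all genes tested was -0.01. Of the 17 other synthesis genes 5 had enough UMIs and 0 passed 1.5-fold, with a median of 0.26, Sc5d at 1.41-fold [1.15 to 1.74], Ebp at 1.28-fold [0.975 to 1.68] and Pmvk at 0.823-fold [0.495 to 1.38]. Mvd, with 51 UMIs but too few cells, stood at 0.737-fold [0.409 to 1.33]. Of 12 uptake and lysosomal genes 7 had enough UMIs, of which 1 was past 1.5-fold higher and 0 lower. Among the other 6, Scarb1, a receptor for high-density lipoprotein, stood at 1.42-fold [0.906 to 2.26], Mylip, a ubiquitin ligase, at 0.720-fold [0.623 to 0.832], and Npc2, a lysosomal cholesterol carrier, at 0.795-fold [0.706 to 0.897]. In the sensing list 1 of 5 passed, Srebf1, an SREBP gene, at 1.96-fold [1.17 to 3.39], beside Srebf2 at 1.41-fold [1.15 to 1.73], Insig2 at 1.17-fold and Mbtps1 at 1.02-fold.

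In the efflux list 1 of 5 was lower in mature neutrophil-like cells, Apoe (apolipoprotein E), at 1.61-fold [1.33 to 1.96] below control, beside Abcg1 at 0.731-fold, Ncor1 at 0.929-fold and Nceh1 at 1.42-fold. In the fatty acid list 0 of 5 passed, with Acly at 1.33-fold, Degs1 at 1.29-fold, Elovl5 at 1.00-fold and Acss2 at 0.881-fold. Free-RNA checks moved beside these, the haemoglobin genes with 4 of 4 higher (Hbb-bs at 1.65-fold, Hbb-bt at 1.81-fold, Hba-a1 at 1.83-fold and Hba-a2 at 1.93-fold) and the B-cell development genes with 4 of 5 lower (Vpreb3 at 2.99-fold, Ebf1 at 2.87-fold and Cd79b at 1.79-fold below control among them, and Cd79a at 1.34-fold below). Their part in the ratios of low genes was not tested.

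In monocyte-like cells, with a median of 0.00 over all genes, 1 of 14 synthesis genes passed, Sc5d, which introduces a double bond late in the pathway, at 1.64-fold [1.29 to 2.10], beside Fdft1 at 1.41-fold, Nsdhl at 0.753-fold and Pmvk at 0.804-fold. Of 10 uptake and lysosomal genes with enough UMIs 1 was past 1.5-fold higher and 1 lower. The lower one was Cd36, a scavenger receptor for fatty acids and oxidised lipoprotein, 3.34-fold [2.54 to 4.40] below control, with 157 and 84 UMIs. Of the 8 that did not pass, Stard4 stood at 1.37-fold and Npc2 at 0.817-fold. Acaca, acetyl-CoA carboxylase, was 2.57-fold [1.55 to 4.46] higher on 19 and 87 UMIs, as the only 1 of 9 fatty acid genes to pass, beside Acss2 at 1.40-fold, Elovl6 at 0.893-fold and Elovl1 at 0.933-fold. In the sensing list 0 of 6 passed, with Srebf1 at 1.28-fold, Scap at 1.20-fold, Mbtps1 at 0.939-fold and Insig2 at 0.945-fold, and in the efflux list 0 of 6, with Apoe at 0.745-fold, Abcg1 at 0.834-fold, Ncor1 at 1.01-fold and Abca1 at 1.05-fold. Haemoglobin genes were 4 of 4 higher there and B-cell development genes 5 of 5 lower.

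Over the 28 class and library pairs the levels of Hmgcs1 followed those of Insig1 (r = 0.66) more than those of Sqle (0.43), and Sqle followed Insig1 at 0.55. The levels of Soat1 ran against those of Sqle (-0.38), Scd2 (-0.37) and Soat2 (-0.36). These points share libraries and depth, and the values are a description. Outside the 8, Cdk5 (0.77), Pank3 (0.76) and Trappc4 (0.72) were most like Hmgcs1, Flt3 (0.79), Tsc22d1 (0.78) and Man1b1 (0.76) most like Sqle, and Bst2 (0.87), a plasmacytoid dendritic cell marker, Tubgcp5 (0.82) and Cnot8 (0.82) most like Insig1.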

How the data were processed

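Per the labels, whole marrow of male wild-type mice was run as 1 control and 1 MCAO library. Values in the table deposited by the authors are natural logs, ln(1 + 10000 × share of the cell's UMIs), for 25943 genes and 10610 cells. The submitters' processing notes name mm10 as the build, and Seurat 4.0.6, UMI-tools, STAR and fastp as tools. Annotation and filters are not given in the sources used here. Libraries were told apart by column names, the Mandarin words for control and stroke, mapped by translation. Whole UMIs were recovered for 100% of 19373615 values above 0 (tolerance 0.01 UMIs). Cell codes are running numbers, so the 5120 codes found in both libraries do not show shared cells. No cell was filtered.

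Doublets were scored against simulated ones (scanpy 1.11.5), 62 control (1.19%) and 64 MCAO cells (1.19%) were marked, and they were kept. Cells were clustered on 2000 variable genes, 30 principal components and 20 neighbours by Leiden at resolution 1 (leidenalg 0.10.2). A class name needed at least 3 markers found in 20% of a cluster's cells and leading genes that did not go against it. Names are rebuilt and may differ from the study's. Clusters 7 and 8 each had 1 immature and 1 mature marker among their leading genes. By the summed marker score cluster 7 was named mature and cluster 8 immature. Macrophage-like cells were also led by Prg2 and Ccr3, and plasmacytoid dendritic-like cells by Cd209a.

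Levels are summed UMIs per 10000, with exact Poisson intervals; ratios have exact conditional binomial intervals and shares Clopper-Pearson intervals (scipy 1.17.1), at 95% confidence. Log2 ratios used a pseudocount of 0.02 per 10000. Shallow cells were left out when thinning to 1000 UMIs (220 control and 33 MCAO cells). The interval method was run on counts simulated with counting error alone, as the intervals assume. That run cannot show how the intervals hold where UMIs are spread unevenly between cells. No test between conditions is possible with 1 library per group, so no p-value is given. Named genes are the 8, the 2 highest and 2 lowest of each list in mature neutrophil-like and monocyte-like cells with at least 50 UMIs, and the 3 genes most like each member with at least 200 UMIs; genes highest in a class are also named. Some genes that this rule takes are not reported here. The members and lists were chosen with earlier results of these data known. Positions are from GENCODE M21 and promoters from RefSeq.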

Additional observations from a re-analysis of the deposited data

Results flagged for a closer look

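Insig1 stood out because its ratio between the libraries pointed in opposite directions in 2 classes, each with an interval that did not include a ratio of 1. The log2 ratio of the MCAO to the control library was 0.50 in pre-neutrophil-like cells, from 45 and 116 UMIs, and -1.0 among pro-B or pre-B-like cells, from 136 and 28 UMIs. Over the alternatives the first ranged from 0.37 to 0.64 and the second from -1.07 to -0.64. With 1 library per group the difference between these classes was not tested.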

How the results depend on the processing

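Under 12 alternatives 899 values were compared, made up of log2 ratios by class and of levels in the class where a gene was highest. Of these, 819 stayed within the counting interval of the main value and 80 moved outside it. Thinning to 1000 UMIs alone moved 27 of 77. Among the log2 ratios past the threshold, 0 reversed. Ratios short of the threshold were not scored for reversal, and some changed sign. In promyelocyte-like cells, for example, thinning turned Hmgcs1 from 0.29 to -0.72 and Sqle from 0.43 to -0.57. The 2 genes counted as higher in mature neutrophil-like cells became 1 (Soat2) after thinning to 1000 UMIs, and 1 (Soat2) without the clusters that came over 85% from 1 library, a setting chosen after seeing the data. The 0 counted as lower there became 2 (Insig1 and Scd1) when the clusters were weighted alike, and 1 (Insig1) without those same clusters. Over all neutrophil-like cells the 4 higher became 1 (Hmgcs1) after thinning, and the 0 lower became 1 (Scd1) with clusters weighted alike. Thinning leaves few UMIs of these genes, so fewer reach the minimum; the cause of the other moves was not tested. Over all neutrophil-like cells Soat2 had a log2 ratio of 1.12, and 0.50 without clusters 7 and 12. No cluster came over 90% from 1 library, so that alternative changed nothing. Depth limits the low genes most, since levels under 0.1 per 10000 rest on few UMIs. No paired analysis was possible because each group has 1 library and the labels give no replicate numbers, and for the same reason no replicate could be left out.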
